A study of Mus musculus with 4 samples.

Results

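The SLAM receptors and the SAP family of adaptors were examined in natural killer (NK) cells isolated from CT26 tumours, set against T cells from such tumours. The members were fixed by symbol and comprise 7 receptor genes (Slamf1, Slamf6, Slamf7, Cd84, Ly9, Cd244a and Cd48) and 3 adaptor genes (Sh2d1a, Sh2d1b1 and Sh2d1b2), 10 of 54544 named genes in the deposited table. Each symbol matched 1 row, and all 10 members passed the filter for testing, a mean of at least 1 over the 4 libraries. The groups were NK cells (2 libraries) and T cells (2 libraries), both isolated from CT26 tumours under the skin of BALB/C mice, each injected with 500000 tumour cells. CT26 is a BALB/C-derived colon carcinoma line. No treatment or genotype separates the groups, and mouse age is not given in the labels. In each cell type, library 1 came from a pool of 4 mice and library 2 from a pool of 6 mice, so each replicate is a pool of animals. All p-values here rest on at most 2 such pools for each cell type, and the tests of single genes also borrow their spread from other genes. The surface markers that defined the sorted cells are not stated in the labels.

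SLAM receptors are immunoglobulin-superfamily proteins of lymphocytes and other blood cells. Most bind another copy of themselves on a neighbouring cell, whereas CD244 (2B4) binds CD48, a protein held in the membrane by a lipid anchor. Tyrosine motifs in the receptor tails recruit SAP, encoded by Sh2d1a, or the EAT-2 adaptors, encoded in mice by Sh2d1b1 and Sh2d1b2. SAP couples the receptors to the kinase FYN, EAT-2 has been tied to phospholipase C gamma in NK cells, and without the adaptors the receptors can engage inhibitory phosphatases such as SHP-1 and SHIP-1.

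The libraries held 2067728 to 2893240 recovered gene-assigned reads. Values are reads divided by a scaled library size (normalized CPM), without length correction, and 1 read was worth 0.354 to 0.551 normalized CPM. Ribosomal RNA genes took 36.9% and 38.8% of reads in NK libraries, against 52.4% and 42.7% in T libraries. The labels were checked with marker lists. The 8 NK markers summed to 10821 and 8384 normalized CPM in NK pools 1 and 2, against 198 and 194 in T pools 1 and 2, and the 9 T cell markers to 70.4 and 53.2 in NK pools, against 2387 and 2026 in T pools. The 10 macrophage markers differed between libraries as well. They summed to 882 and 201 in NK pools, with 10 of 10 detected in each, against 249 and 25.5 in T pools, with 10 and 6 detected. None of them was at 0 in both pools of a cell type. B and plasma cell markers summed to at most 2.48 in any library, and all 6 were at 0 reads in NK cells. The 6 dendritic cell markers summed to 5.29 and 7.09 in NK pools, against 11.0 and 0.71 in T pools. The 6 neutrophil markers summed to 23.2 and 23.4 in NK pools, against 94.7 and 12.8 in T pools. Of 5 mast cell markers only Kit was detected. Platelet markers summed to 47.6 and 39.0 in NK pools, against 0 and 2.48 in T pools, and tumour and stromal markers to 146 and 252, against 70.5 and 94.3. Nearly all of the platelet sum in NK pools was Pf4 (47.6 and 34.0), with Itga2b and Gp9 at 0. Nearly all of the tumour and stromal sum was Pecam1, at 146 and 248 in NK pools, against 63.3 and 91.4 in T pools. Krt8 and Krt18 were at 0 reads in all libraries, and Epcam had 7 reads over both NK pools, against 20 over both T pools. In bulk libraries, fewer cells of a type and less RNA per cell cannot be told apart.

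The promoters of the 4 members whose level differed between the cell types, and of Sh2d1b2, the close copy of Sh2d1b1, are shown first because the results below turn on these genes. Each runs 5′ to 3′ from 250 bases before to 50 bases after the RefSeq gene start on GRCm38.p6, plus strand throughout: Cd244a at chr1:171558943-171559242, Slamf1 at chr1:171766882-171767181, Slamf6 at chr1:171917212-171917511, Sh2d1b1 at chr1:170277068-170277367 and Sh2d1b2 at chr1:170232621-170232920. Capitals mark matches, on either strand, to any of 8 motifs: T-box GGTGTGA, RUNX TGTGGTT, ETS AGGAAG, TCF/LEF CTTTGA, E-box CANNTG, AP-1 TGANTCA, NFAT TGGAAAA and kappaB GGGNNTTCC. The letters are those of the C57BL/6J reference, not of BALB/C.
Cd244a: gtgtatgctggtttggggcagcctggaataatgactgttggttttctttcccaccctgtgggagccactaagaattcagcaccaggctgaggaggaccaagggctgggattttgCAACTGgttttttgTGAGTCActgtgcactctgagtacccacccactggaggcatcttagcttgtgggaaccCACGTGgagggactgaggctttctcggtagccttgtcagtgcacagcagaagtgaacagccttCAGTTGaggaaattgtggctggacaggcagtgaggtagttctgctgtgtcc
Slamf1: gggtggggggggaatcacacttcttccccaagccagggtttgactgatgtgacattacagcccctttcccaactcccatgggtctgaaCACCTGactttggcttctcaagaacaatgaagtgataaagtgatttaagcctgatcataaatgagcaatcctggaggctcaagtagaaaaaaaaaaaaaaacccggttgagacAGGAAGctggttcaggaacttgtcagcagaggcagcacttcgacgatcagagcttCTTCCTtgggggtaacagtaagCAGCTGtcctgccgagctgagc
Slamf6: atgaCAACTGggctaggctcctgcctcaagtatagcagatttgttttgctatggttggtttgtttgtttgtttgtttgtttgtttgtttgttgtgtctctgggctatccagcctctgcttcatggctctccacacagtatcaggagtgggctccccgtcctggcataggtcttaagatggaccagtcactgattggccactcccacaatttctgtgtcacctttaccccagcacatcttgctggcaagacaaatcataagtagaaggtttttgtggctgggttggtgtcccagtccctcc
Sh2d1b1: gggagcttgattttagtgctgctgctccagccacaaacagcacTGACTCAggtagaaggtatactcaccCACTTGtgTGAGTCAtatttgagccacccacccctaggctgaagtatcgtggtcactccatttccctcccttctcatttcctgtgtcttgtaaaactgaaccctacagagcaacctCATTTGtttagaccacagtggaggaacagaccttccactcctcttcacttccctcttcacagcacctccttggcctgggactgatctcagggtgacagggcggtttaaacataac
Sh2d1b2: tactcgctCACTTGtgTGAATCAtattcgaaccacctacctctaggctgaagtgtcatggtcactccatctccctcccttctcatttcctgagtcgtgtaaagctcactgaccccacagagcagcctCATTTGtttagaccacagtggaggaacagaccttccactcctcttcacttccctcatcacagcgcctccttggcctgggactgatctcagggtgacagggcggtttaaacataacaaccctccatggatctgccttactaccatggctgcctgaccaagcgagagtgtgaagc

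Of the 10 members, RefSeq promoters were found for 8. The letters TGANTCA lay in 5 of these 8 windows, namely those of Sh2d1b1, Sh2d1b2, Cd244a, Slamf7 and Cd84, and in 7.81% of 32851 promoters of the same length. In the Sh2d1b1 window they began 207 and 173 bases before the gene start (positions -207 and -173), in Sh2d1b2 at -234 and in Cd244a at -122. E-box letters lay in 8 of 8 windows, against 72.3% of all promoters. ETS letters lay in 4 of 8, against 35.4%, with 2 matches in Slamf1, at -49 and 7. T-box letters lay only in the Cd48 window, at -73, against 3.98% of all promoters, and TCF/LEF letters only in that of Cd48, at -168, against 16.0%. RUNX, NFAT and kappaB letters lay in 0 of the 8 windows, against 5.27%, 6.73% and 5.82% of all promoters. In Cd48 the T-box match overlaps the E-box match. The Sh2d1b1 and Sh2d1b2 windows aligned over 242 columns with 91.3% identity. The TGANTCA matches at -173 in Sh2d1b1 and -234 in Sh2d1b2 fall at the same place in this alignment, so these windows are not separate occurrences among the 5. A match describes letters, not bound factors.

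Cd244a (log2 fold change 3.97) and Sh2d1b1 (4.10) were higher in NK cells than in T cells, and Slamf1 (-4.70) and Slamf6 (-2.81) were lower. The test was limma on log2(value + 1), with a Benjamini-Hochberg adjusted p under 0.05 over 12105 genes. It called 4 of 10 members, beside 280 genes or 2.31% of all tested. Of 7 receptors, Cd244a passed on the NK side, Slamf1 and Slamf6 passed on the T side and 4 did not pass. Of 3 adaptors, Sh2d1b1 passed, on the NK side. By direction, 2 members passed on the NK side, beside 1.22% of all genes, and 2 on the T side, beside 1.09%. In edgeR's quasi-likelihood test on recovered reads the same 4 members passed, beside 2.73% of all genes (1.41% on the NK side and 1.31% on the T side). With the 2 pools as replicate blocks in limma, a fit with 1 residual degree of freedom, 6 of 10 members passed, beside 8.28% of all genes. They were 4 on the NK side, beside 4.3% of all genes, and 2 on the T side, beside 3.98%. NK and T values did not overlap for 9 of 10 members, Cd84 being the exception, while 43.4% of all genes did not overlap. The NK values lay above in 6 members, beside 22.1% of all genes, and below in 3, beside 21.3%. The median absolute log2 fold change was 2.21 over the members and 0.52 over all genes tested. Log2 fold changes below are NK minus T on the log2(normalized CPM + 1) scale, on which folds of weakly expressed genes come out too small.

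**Figure D1:**
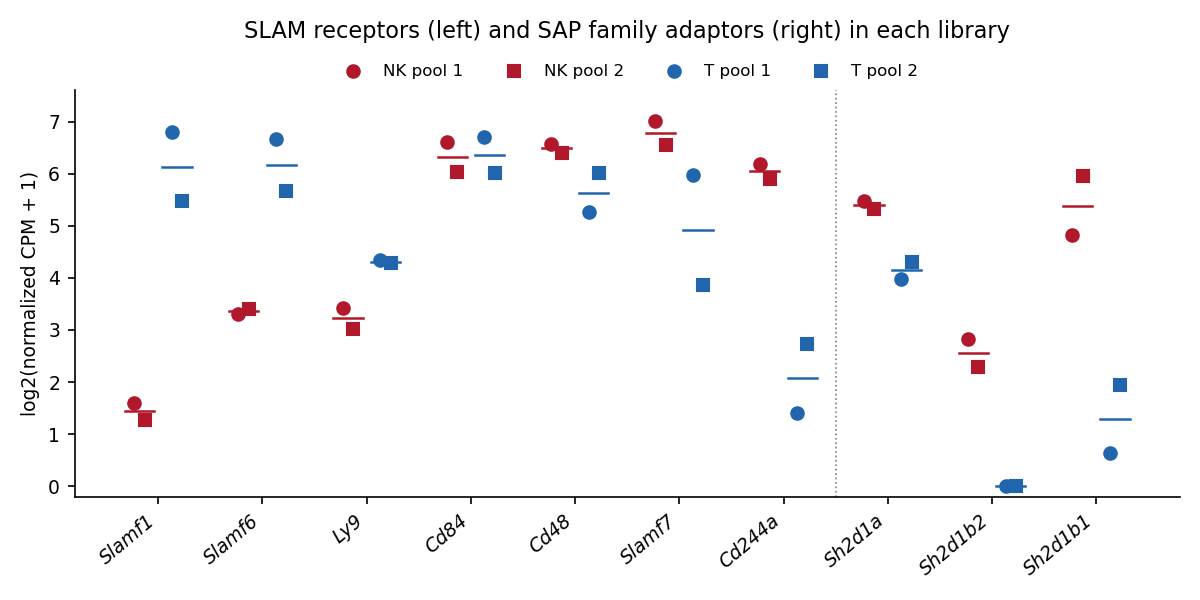
Level of each member in each library as log2(normalized CPM + 1), with NK pools in red to the left of T pools in blue. Circles are pool 1, squares pool 2 and bars group means. Slamf1 and Slamf6 lay lower in NK pools than in T pools, Cd84 overlapped, and the adaptors lay higher in NK pools.

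Cd244a encodes CD244 (2B4), an NK cell receptor that can activate or inhibit. It stood at 72.0 and 58.5 normalized CPM in NK pools 1 and 2, against 1.65 and 5.67 in T pools 1 and 2, or 177 and 165 reads against 3 and 16 reads. Both NK pools were far above both T pools. The log2 fold change was 3.97 (SE 0.57, limma adjusted p = 0.00532), from 65.2 ± 9.54 in NK cells and 3.66 ± 2.84 in T cells (SD, n = 2 each). The ratio of reads scaled to library size was 15.8 (exact 95% counting interval 9.97 to 26.6). Counting intervals here cover counting error only. The T level was 5.61% of the NK level. For the NK markers the same figure was 0.137% for Ncr1, 0.133% for Klrb1c, 0.236% for Gzma, 3.38% for Tyrobp and 7.52% for Eomes. It was 19.4% for Klrd1 and 27.3% for Klrk1, which some T cells also express. Klra8 was at 0 reads in T cells, but had only 11 reads in NK cells. How far NK cells among the sorted T cells contribute was not tested. BALB/C and the C57BL/6J reference carry different haplotypes of the SLAM region, in which Cd244 gene copies also differ. How BALB/C reads aligned to the reference copy was not tested.

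Cd48, the ligand of CD244, did not pass the test. It stood at 94.4 and 83.3 normalized CPM in NK pools, against 37.4 and 63.4 in T pools. The groups did not overlap, yet the T pools differed by more than the gap between NK pool 2 and T pool 2. On the log2 scale, NK minus T was 0.85 (SE 0.38, limma adjusted p = 0.389), with a 95% interval of 0.999 to 3.25 as a fold of value + 1. NK libraries thus held transcripts of both receptor and ligand, and T libraries held the ligand's with few of the receptor's.

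Slamf1 encodes SLAM (CD150), a self-ligand and T cell costimulator. It was at 2.03 and 1.42 normalized CPM in NK pools, against 110 and 43.6 in T pools, from 5 and 4 reads against 200 and 123 reads. Every NK value lay far below every T value, and T pool 1 was 2.53 times T pool 2. For Slamf1, NK minus T was -4.70 (SE 0.59, limma adjusted p = 0.00259), with means of 1.73 ± 0.435 in NK cells and 76.9 ± 47.1 in T cells (SD, n = 2 each). Scaled reads were 40.8 times as frequent in T cells (counting interval 21.3 to 90.1). The NK level was 2.25% of the T level, and for the 9 T cell markers the same figure ran from 0.256% for Cd8a to 13.5% for Cd3g. The part of T cells among the sorted NK cells in this value was not tested.

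Slamf6 encodes Ly108, a self-ligand known in mice as a marker of progenitor-like exhausted T cells. It stood at 8.95 and 9.57 normalized CPM in NK pools, against 101 and 49.6 in T pools. The NK pools were close to each other and below both T pools. NK minus T for Slamf6 was -2.81 (SE 0.48, limma adjusted p = 0.0116), with means of 9.26 ± 0.441 in NK cells and 75.2 ± 36.2 in T cells (SD, n = 2 each). Scaled reads were 7.50 times as frequent in T cells (counting interval 5.54 to 10.4). The NK level was 12.3% of the T level. Among the 9 T cell markers the highest such figure was 13.5% for Cd3g, and the next was 3.44% for Cd3d. How far T cells among the sorted NK cells contribute to Slamf6 was not tested.

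Ly9 encodes CD229, another self-ligand, and did not pass the test. It stood at 9.76 and 7.09 normalized CPM in NK pools, against 19.3 and 18.4 in T pools. The pools of each cell type lay close together and did not overlap between cell types. The fitted difference for Ly9 was -1.09 (SE 0.52, limma adjusted p = 0.426), with a 95% interval of -2.24 to 0.07. Reads totalled 44 in NK cells against 87 in T cells.

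Slamf7 encodes CRACC (CD319), a self-ligand of NK cells, plasma cells and macrophages that signals through EAT-2. It reached 128 and 92.9 normalized CPM in NK pools, against 62.2 and 13.5 in T pools, with T pool 1 at 4.62 times T pool 2. The NK values lay above both T values, but the T pools were far apart. The log2 fold change was 1.86 (SE 0.59, limma adjusted p = 0.174). Blocked by pool, Slamf7 passed in limma (adjusted p = 4.14e-06), in a fit with 1 residual degree of freedom that leans on the spread of other genes. The within-pool differences were 1.03 in pool 1 and 2.70 in pool 2 on the log2 scale. Macrophage markers were also higher in pool 1 than in pool 2 of each cell type, as given above, and their part in Slamf7 was not tested. An antisense gene, Gm37787, overlaps exons of Slamf7, and the strand setting of the counting is not stated.

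Cd84, a self-ligand of lymphocytes, platelets and myeloid cells, did not separate the cell types. It stood at 97.2 and 64.9 normalized CPM in NK pools, against 103 and 63.8 in T pools. Pool 1 was above pool 2 in both cell types, and the groups overlapped fully. The macrophage markers too were higher in pool 1 of each cell type, and their part in Cd84 was not tested. The log2 fold change was -0.03 (SE 0.39, limma adjusted p = 0.984), with a 95% interval of 0.541 to 1.77 as a fold of value + 1.

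**Figure D2:**
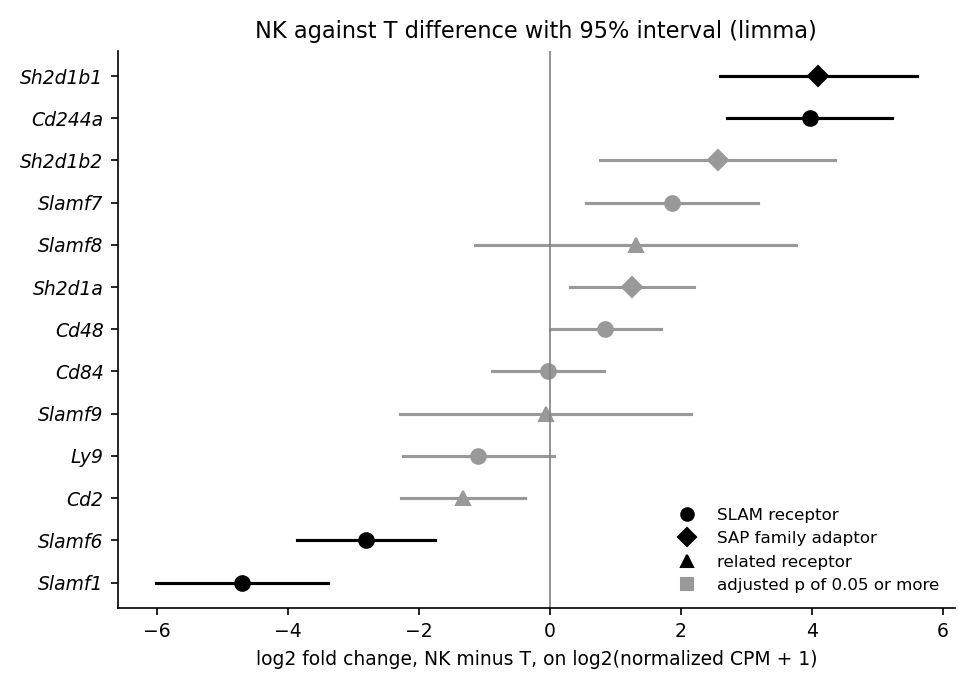
Log2 fold change, NK minus T, on log2(normalized CPM + 1), with 95% limma intervals for the members and 3 related receptors. Black marks genes past the adjusted threshold. Sh2d1b1 and Cd244a lie on the NK side at 4.10 and 3.97, and Slamf1 and Slamf6 on the T side at -4.70 and -2.81.

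Levels of different receptors were compared per kb of annotated exon, which counts exons of all isoforms and so lowers long genes. Cd48 had the highest level per kb in all 4 libraries, at 79.4 and 70.1 in NK pools, against 31.5 and 53.3 in T pools. It made up 56.0% and 60.4% of the summed receptor level in NK pools, against 33.2% and 62.9% in T pools. Behind it the order differed between cell types. In NK pools Slamf7 came next with 19.7% and 17.5%, followed by Cd84 (10.9% and 8.92%) and Cd244a (10.4% and 10.3%), whose order swapped between pools. In T pool 1 Slamf1 came next with 18.9%, before Cd84 with 17.3%, and in T pool 2 Cd84 came next with 12.0%, before Slamf1 with 8.34%. Slamf1 and Slamf6 were the lowest receptors in NK pools, at 0.23% and 0.58% in pool 1 and 0.20% and 0.76% in pool 2. Cd244a was the lowest receptor in T pools, at 0.36% and 1.37%. The summed receptor level per kb was 142 and 116 in NK pools, against 94.9 and 84.8 in T pools.

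**Figure D3:**
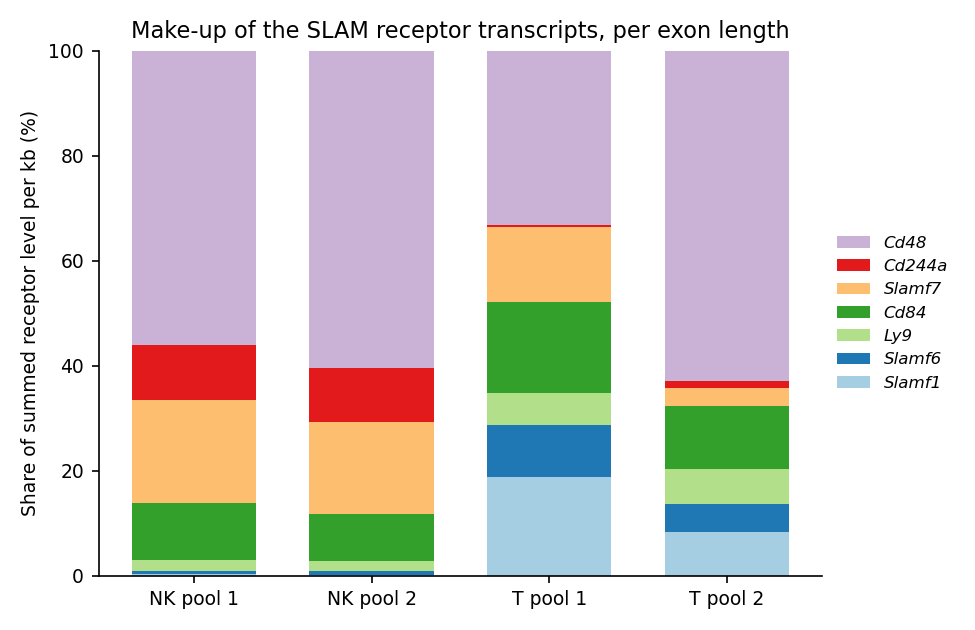
Share of each receptor in the summed SLAM receptor level per kb of exon, in percent, for NK pools 1 and 2 and T pools 1 and 2. Cd244a takes 10.4% and 10.3% in NK pools and 0.36% and 1.37% in T pools.

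The NK values of all 3 adaptors lay above the T values, beside 22.1% of all genes, and Sh2d1b1 passed the test. Sh2d1b2 had 0 reads in T cells, so it passed the filter on the mean only through its NK values. Sh2d1b1, which encodes an EAT-2 adaptor, stood at 27.3 and 61.0 normalized CPM in NK pools, against 0.55 and 2.83 in T pools, from 67 and 172 reads against 1 and 8 reads. NK pool 2 was above NK pool 1, and both were well above the T pools. The log2 fold change was 4.10 (SE 0.68, limma adjusted p = 0.0102), with means of 44.1 ± 23.9 in NK cells and 1.69 ± 1.62 in T cells (SD, n = 2 each). The ratio of scaled reads was 23.3 (counting interval 12.1 to 51.6). The T level was 3.84% of the NK level. For the NK markers this figure spread widely, from 0.133% for Klrb1c to 27.3% for Klrk1. Klra8, with only 11 reads in NK cells, was at 0 reads in T cells. How far NK cells among the sorted T cells contribute to Sh2d1b1 was not tested.

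Sh2d1b2, the second EAT-2 gene of the mouse (ERT), stood at 6.10 and 3.90 normalized CPM in NK pools, against 0 reads in both T pools. With 26 NK reads, its NK level was 7.61 times a floor of 3 reads summed over both T pools (0.647 normalized CPM). The exact 95% counting interval of the ratio had a lower limit of 5.76. It did not pass (limma adjusted p = 0.169). Sh2d1b1 and Sh2d1b2 shared 334 50-base stretches of transcript, 13.4% and 13.1% of all such stretches in each gene, so the split of reads between them is uncertain there.

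Sh2d1a, which encodes SAP, stood at 43.5 and 39.0 normalized CPM in NK pools, against 14.9 and 18.8 in T pools. Pools of a cell type were close together, and the NK values lay above the T values. For Sh2d1a, NK minus T was 1.25 (SE 0.43, limma adjusted p = 0.216), and the ratio of scaled reads was 2.38 (counting interval 1.84 to 3.12). With the replicate block it passed in limma (adjusted p = 0.0436), making 2 of 3 adaptors called, beside 8.28% of all genes. In edgeR with the block Sh2d1a did not pass (adjusted p = 0.0611), and 1 of 3 adaptors was called, beside 892 of 12105 genes. Exons of Tenm1 on the opposite strand overlap those of Sh2d1a, so without a stated strand setting the reads of both cannot be told apart there.

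The balance of EAT-2 and SAP was taken as a share of reads within each library. EAT-2 reads were 82 of 189 SAP family reads in NK pool 1 and 183 of 293 in NK pool 2, against 1 of 28 in T pool 1 and 8 of 61 in T pool 2. As shares these were 43.4% (exact 95% interval 36.2 to 50.8) and 62.5% (56.6 to 68.0) in NK pools, against 3.57% (0.09 to 18.3) and 13.1% (5.84 to 24.2) in T pools. These intervals cover counting error within a library only. The NK intervals did not reach the T intervals, and those of NK pools 1 and 2 did not reach each other. The mean was 52.9% ± 13.5 in NK cells and 8.34% ± 6.75 in T cells (SD, n = 2 each), with a two-sided exact permutation p = 0.333, the smallest that 2 against 2 libraries allow. Per kb of exon, Sh2d1b1 was above Sh2d1a in NK cells, at 10.7 against 7.91 in pool 1 and 24.0 against 7.08 in pool 2. In T cells it was below Sh2d1a, at 0.22 against 2.70 in pool 1 and 1.11 against 3.41 in pool 2. The summed adaptor level was 0.148 and 0.281 times the summed receptor level in NK pools, against 0.031 and 0.053 times in T pools. Of this receptor sum, Cd48, whose protein has a lipid anchor, made up 56.0% and 60.4% in NK pools. In T pools Cd48 made up 33.2% and 62.9%. The mean log2 fold change was 2.64 over the adaptors and -0.28 over the receptors, a difference of 2.92, with 3.18 in pool 1 and 2.65 in pool 2. The receptor mean averages members from -4.70 to 3.97, and the difference was 1.80 at a pseudocount of 5.

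**Figure D4:**
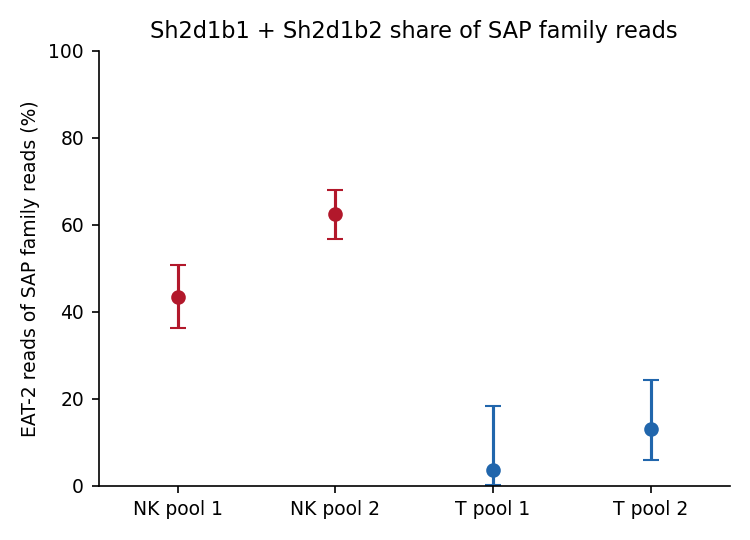
EAT-2 reads (Sh2d1b1 and Sh2d1b2) as a percent of SAP family reads in each library, with exact 95% binomial intervals for counting error only. NK pools stand at 43.4% and 62.5% and T pools at 3.57% and 13.1%.

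The genes of all 7 receptors lie within 394 kb of chromosome 1 (171559193 to 171953170, GRCm38), and the EAT-2 genes within 54.0 kb at lower coordinates (170232749 to 170286769). Sh2d1a lies apart on chromosome X at 42502453 to 42529330. In coordinate order, Cd244a, higher in NK cells, stood at the first end of the receptor stretch, and Slamf1 and Slamf6 stood towards the other. Cd244a (171559193 to 171609746, plus strand) encloses Ly9 (171588624 to 171607410, minus strand) without shared exonic bases, and their fold changes had opposite signs. Slamf1 (171767127 to 171801184) and Slamf6 (171917515 to 171953170) flank Cd84 (171839697 to 171890718), which overlapped between cell types. Of 19 annotated genes in the stretch, 2 others reached the filter, A630035G10Rik and Gm37010, and neither passed the test (limma adjusted p = 0.677 and 0.566).

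**Figure D5:**
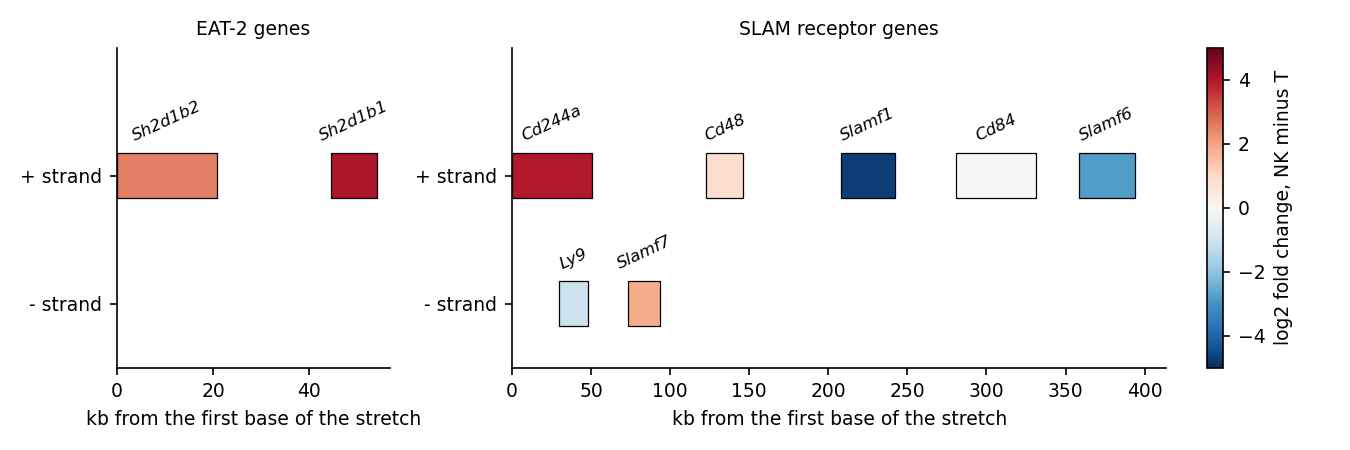
Positions of the EAT-2 genes and of the SLAM receptor genes on chromosome 1, in kb from the first base of each stretch, on the plus and minus strands. Colour gives the log2 fold change, NK minus T, from -4.70 for Slamf1 to 4.10 for Sh2d1b1.

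Of 3 related receptors outside the members, 0 passed the test, beside 2.31% of all genes by limma and 2.73% by edgeR. By limma 1 (Cd2) was at an unadjusted p under 0.05, on the T side, beside 764 of 12105 genes on that side. Cd2, an adhesion receptor that binds CD48 in mice, stood at 55.7 and 105 normalized CPM in NK pools, against 273 and 137 in T pools. The groups did not overlap, and NK pool 2 stood above NK pool 1, while T pool 1 stood above T pool 2. NK minus T for Cd2 was -1.32 (SE 0.43, limma adjusted p = 0.182), and with the replicate block it passed in limma (adjusted p = 4.17e-04). The within-pool differences were unlike, at -2.27 in pool 1 and -0.38 in pool 2 on the log2 scale, and the blocked fit has 1 residual degree of freedom. Slamf8, a macrophage receptor, had 21 and 0 reads in NK pools against 1 and 0 reads in T pools. Slamf9, also of myeloid cells, had 9 and 0 reads in NK pools against 5 and 1 reads in T pools. Reads of Slamf8 and Slamf9 were in pool 1 but for 1 read. Macrophage markers were higher in pool 1 of each cell type too, and their part in these reads was not tested.

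Of 28 listed genes that act below the receptors, Plcg2 and Lyn passed on the NK side, Plcg1 and Lat on the T side. All were among the 17 kinases and activating components. Of all genes tested, 1.22% passed on the NK side and 1.09% on the T side. Plcg2, a phospholipase C gamma of NK, B and myeloid cells, stood at 44.3 and 52.5 normalized CPM in NK pools, against 7.71 and 3.54 in T pools (log2 fold change 2.97, SE 0.52, limma adjusted p = 0.0140). Lyn, a SRC-family kinase of myeloid and B cells, stood at 65.5 and 57.4 in NK pools, against 19.3 and 6.73 in T pools (2.32, SE 0.52, limma adjusted p = 0.0477). The Lyn call was lost with edgeR without NK pool 1 (adjusted p = 0.0530) and without T pool 2 (0.0999). On the T side were Plcg1, the phospholipase C gamma of T cell receptor signalling, at 1.63 and 1.77 in NK pools against 79.8 and 43.2 in T pools, and the adaptor Lat, at 15.0 and 18.4 against 170 and 161. The log2 fold change was -4.47 (SE 0.56, limma adjusted p = 0.00247) for Plcg1 and -3.24 (SE 0.36, limma adjusted p = 0.00134) for Lat. Macrophages also express Lyn and Plcg2, and the part of the macrophage signal (882 and 201 in NK pools, against 249 and 25.5 in T pools) was not tested. Exons of Zhx3 and Gm27206 overlap Plcg1, those of Gm26857 overlap Lyn and Mir7058 lies in Lat.

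Fyn, the kinase that SAP recruits, stood at 136 and 250 normalized CPM in NK pools, against 189 and 281 in T pools, and overlapped between cell types (limma adjusted p = 0.778). Syk, a kinase of innate receptor signalling, stood at 30.5 and 18.1 in NK pools, against 6.61 and 3.90 in T pools. With the replicate block it passed in limma (adjusted p = 0.0102, against 0.122 without the block) and in edgeR (adjusted p = 0.00654). Of 11 phosphatases and inhibitory components, 0 passed, beside 2.31% of all genes by limma and 2.73% by edgeR, so this count lies near those shares. By limma 0 were at an unadjusted p under 0.05, beside 789 of 12105 genes on the NK side and 764 on the T side. Ptpn6 (SHP-1) stood at 70.8 and 77.6 in NK pools, against 65.0 and 53.2 in T pools, and Inpp5d (SHIP-1) at 74.4 and 93.2, against 52.9 and 51.4. With the block, Dok2, an inhibitory docking protein, passed in limma (adjusted p = 0.0406) and not in edgeR (adjusted p = 0.0710). Of the 31 related and downstream genes, limma called 7 with the block, beside 8.28% of all genes, and 4 without it, beside 2.31%. EdgeR called 6 with the block, beside 892 of all 12105 genes.

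The genes whose pattern over the 4 libraries was nearest to each called member were taken by Euclidean distance of centred log2(normalized CPM + 1) values, among 6911 genes with a mean of at least 10. For Cd244a they were Klrb1a (distance 0.25), Irf8 (0.27) and Arap3 (0.27). For Sh2d1b1 they were Gm44135 (0.55), Adamts14 (0.68) and Dab2ip (0.71). For Slamf1 they were Plcg1 (0.48), Cd5 (0.49) and A630023P12Rik (0.58), and for Slamf6 they were Slco3a1 (0.19), Prelid2 (0.37) and Nxpe3 (0.42). The 4 libraries form 2 groups, so these distances rest on few points.

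The 4 member calls rest on a spread shared across genes. When each library was dropped in turn, 0 genes passed in limma, with 752 to 1754 genes below an unadjusted p of 0.05, and the adjusted p of the 4 members ran from 0.304 to 0.797. In edgeR's quasi-likelihood test all 4 passed with all libraries (adjusted p = 0.000876 for Slamf1, 0.00672 for Slamf6, 0.00279 for Cd244a and 0.00555 for Sh2d1b1). They also passed in edgeR without NK pool 1, NK pool 2, T pool 1 or T pool 2, at an adjusted p of 0.0158 or less.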

How the data were processed

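RNA sequencing values for 4 libraries were used as deposited. The deposited table is named as normalized expression, with 1 column per library per the file headers. Cells were isolated by flow cytometry, per the labels' protocols. The tools listed, without roles, are STAR 2.7.0f, Bowtie2 2.3.4.1, FastQC and limma, with GRCm38.p6 as the build, per the submitters' processing notes. How reads were counted, with what strand setting, and how they were normalized is not stated there. The deposited values are a linear signal, and 100% of non-zero values were whole multiples of the smallest value in their column (tolerance 0.001 reads), so whole reads were recovered. The signal is treated as CPM of a scaled library size. Rows without a symbol (797 of 55450, at most 0.0214% of reads) were left out, and 27 symbols that read as dates were recovered by identifier. Coordinates are from GENCODE M21 (GRCm38), which held all 55450 identifiers.

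The 12105 genes with a mean of at least 1 were tested as log2(value + 1) with limma 3.58.1 (R 4.3.3, trended spread), as NK minus T, at a Benjamini-Hochberg adjusted p under 0.05 across all of them. Alternatives used edgeR 4.0.16 (quasi-likelihood) and DESeq2 1.42.0 on the recovered reads. The text names the members, 3 related receptors, downstream genes past the threshold, neighbours in the member stretches and the 3 nearest profiles per called member. Fyn, Syk, Ptpn6, Inpp5d, Dok2, A630035G10Rik and Gm37010 were added after their values were seen. Members and lists were chosen with earlier results of these data known. Replicate numbers were taken to pair NK and T libraries, since the design text gives pools of 4 mice for number 1 and 6 mice for number 2. Across genes, differences between NK pools correlated with differences between T pools at 0.162. No library was a duplicate of its partner (chi-square per degree of freedom 10.3 and 19.3). Counting intervals are exact at 95%.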

Additional observations from a re-analysis of the deposited data

How the results depend on the processing

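The calls of Slamf1, Slamf6, Cd244a and Sh2d1b1 were kept in each alternative that used all libraries except limma without a trend, and all 10 members kept their sign in each alternative run except Cd84, which changed sign in 5 of 19. Limma without a trend called 38 genes, 0 receptors, 0 adaptors and 1 of the related and downstream genes. With the replicate block limma called 1002 genes, 2 adaptors and 7 related and downstream genes, and edgeR 892 genes, 1 adaptor and 6 related and downstream genes. That limma fit has 1 residual degree of freedom, so it is given as a comparison. Among the genes followed through the alternatives, the block changed the calls of Slamf7, Cd2 and Syk in both tools, and of Sh2d1a and Dok2 in limma but not in edgeR. DESeq2 called 430 genes. Leaving out each library in turn, which assumes that the lone sample varies like the other group, limma called 0 genes in every case, hence 0 receptors, 0 adaptors and 0 related and downstream genes, while edgeR called 323 genes without NK pool 1, 429 without NK pool 2, 464 without T pool 1 and 486 without T pool 2. The Slamf7 call appeared in edgeR without T pool 1 (adjusted p = 0.00136). Lyn lost its call at a pseudocount of 0.5 (adjusted p = 0.0671) and when scaled to reads outside ribosomal RNA genes (0.0667), with log2 fold changes of 2.37 and 2.33, against 2.32 as reported. The adaptor minus receptor difference was 3.36 at a pseudocount of 0.5, 1.80 at 5, and 2.42 to 3.41 without each library in turn. Plain CPM moved the median log2 fold change of all genes to 0.22, against 0.02 as deposited, and left the 4 member calls in place. The causes were not tested. Depth limits Sh2d1b2, Slamf8 and Slamf9, with at most 26 reads in a group.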
